A study of Arabidopsis thaliana with 24 samples.

Results

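The entries described here were rows of the deposited count table whose identifier is an Arabidopsis locus followed by a dot and a transcript number, with 100 or more reads summed over the 24 libraries. There were 189 of them, from 185 loci, among 3911 rows with such an identifier and 33612 rows in the table. Of the other rows with such an identifier, 2838 had no read and 884 had 1 to 99 reads. The entries were chosen by their summed reads, so their presence above that threshold is no result. Just inside the threshold lay AT5G52055.1 with 101 reads and AT2G05290.1 and AT2G14245.1 with 104 each, and just outside it AT5G59640.1, AT3G17290.1 and AT1G33817.1 with 98 each. In 18 of the 189 entries the total would fall under 100 without the genotype with the most reads. These include RE2, AT2G13431.1 and AT3G46487.1 through hid1, AT5G43800.1 through WT, AT5G32197.1, AT3G29156.1 and AT5G52055.1 through e2f, and AT1G67626.1 and AT3G28915.1 through hid1 phil1. Comparisons of such an entry with that genotype rest on the reads that chose it and are given as values, with no test.

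Transposable elements are DNA sequences that can copy or move themselves within a genome. Plants keep most of them silent through DNA methylation and repressive histone marks, laid down by enzymes such as MET1 at CG sites and CMT3 at other sites, and by small RNAs that guide methylation. Reverse-transcribed classes include the copia elements and the short non-coding Sadhu elements, whereas the MUSTANG genes are former Mutator-type transposases that plants have kept as genes of their own. The names of the entries fitted this description in part. The TAIR10.1 annotation of RefSeq lists 187 of the 189 as pseudogenes and 2, MUG3 and MUG7, as protein coding, and it gives a name of its own to 23: 11 Sadhu rows, 9 MUSTANG rows, the copia element RE2, CYTOSLEEPER and EXT11. EXT11 carries the name of an extensin, a cell wall protein, so the identifier format does not by itself show that an entry is a transposon.

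RNA came from whole Arabidopsis seedlings aged 9 days in continuous white light, with 3 libraries per genotype. The first set of libraries held Col-0 WT, the hid1 mutant, the bte1 mutant, the bte1 hid1 double mutant and the hid1 phil1 double mutant, in which phil1 changes the proximal promoter of HIL1. The second set held the btl1 mutant, the bte1 btl1 double mutant and the triple mutant of e2fa, e2fb and e2fc, called e2f here, and no WT. HID1 encodes a noncoding RNA of light responses, the DREAM complex named in the study's title represses cell-cycle genes, and E2F proteins are among the factors that recruit it to DNA. The labels give no allele and no gene identity for bte1 and btl1.

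Counted reads per library ran from 14309396 to 23912716. HID1 had 163, 215 and 213 reads in WT, 0 in each hid1 and bte1 hid1 library, and 0, 9 and 0 in hid1 phil1. E2FA and E2FC were higher in the e2f libraries than in btl1 (31.3 against 10.1 and 47.5 against 10.3 CPM, the count scaled to adjusted library size) and E2FB was at 5.53 against 6.90, so gene counts do not check that genotype, and e2f below means the libraries labelled so. The reference used here does not name BTE1 or BTL1. The 4 green-tissue markers summed to 24229 to 34399 CPM in the first set, with bte1 hid1 (24229 to 26886) below WT (27461 to 29119) and hid1 (27866 to 28261). Root markers summed to 20.8 to 43.9 CPM and both pollen markers were at 0 in all 24 libraries. The 7 seed markers summed to 0.126 to 0.744 CPM in WT, 1.04 to 85.2 in hid1 and at most 1.59 in the rest of the first set, and to 0.532 to 140.6 in the second set. Replicate 2 of hid1 phil1 stood apart from its replicates (chi-square per degree of freedom 19.8 and 20.3, against 4.67 between the other two), and the 3 e2f libraries differed among themselves by 15.4, 22.4 and 33.5. For the other genotypes it was 2.81 to 10.3. In bulk seedlings, fewer cells of a type and less RNA per cell cannot be told apart. Counting strand and the treatment of reads with several genomic matches are not given in the sources used here.

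The entries together took a small share of each library, from 0.135% in bte1 btl1 replicate 1 to 0.193% in bte1 hid1 replicate 1. Their share of counted reads in WT was 0.177% (SD 0.0025, n = 3). The share was 0.175% for hid1 (SD 0.00619), 0.179% for hid1 phil1 (SD 0.0125), 0.170% for bte1 (SD 0.00204) and 0.188% for bte1 hid1 (SD 0.00559). In the second set it was 0.161% in btl1 (SD 0.00225), 0.148% in bte1 btl1 (SD 0.0112) and 0.175% in e2f (SD 0.0122). The share is a sum over chosen rows and was not tested, and in e2f it includes AT5G32197.1, an entry that e2f chose.

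That share was concentrated in few entries. The 10 with the most reads held 45.6% of the 847108 reads of all entries, and AT2G11240.1 alone held 19.4% with 164355 reads. It was followed by SADHU1-1 (AT2G10410.1) with 44133 reads, AT4G16870.1 with 36128, AT1G35115.1 with 26351, AT1G80020.1 with 24750 and AT5G55896.1 with 22528. The next were AT2G06950.1 with 20213 reads, MUG1 (AT3G04605.1) with 16154, AT3G43690.1 with 16149 and AT1G20390.1 with 15673, while the median entry had 1138 reads. Per length, in the authors' deposited FPKM, SADHU1-1 led in WT with 87.9, followed by AT2G11240.1 with 35.9, and the median entry was at 0.928. A locus on the opposite strand covers 83.2% of AT2G11240.1, so its reads may belong to either strand.

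The entries were spread over all 5 chromosomes, with 34, 35, 45, 27 and 48 on chromosomes 1 to 5. Their loci had a median length of 2492 bases, from 377 to 15195, and a median GC content of 41.8%. In 132 of the 189 no stretch of 100 bases occurred elsewhere in the reference genome, and in 7 more than 50% of such stretches did. Another annotated locus overlapped 44 entries, 30 of them on the opposite strand. AT1G30835, AT2G13975, AT3G60930 and AT5G16505 each gave 2 rows, which are not independent, with 0, 22, 3 and 10 of the 24 libraries at equal reads. The rows of AT1G30835 had 13104 and 14343 reads. Reads were present in every library for 151 entries.

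Genotype differences were tested in 1 edgeR quasi-likelihood fit over all 24 libraries, with Benjamini-Hochberg adjustment over the 21897 rows that passed a low-count filter, and an entry is called at an adjusted p below 0.05. The filter kept 183 entries, and AT2G05290.1, AT3G14517.1, AT3G26614.1, AT3G46487.1, AT5G25045.1 and AT5G26582.1 were not tested. A test for any difference among the 5 genotypes of the first set called 28 entries, 15.3% of those tested, against 10.5% of all rows tested. The same test among the 3 genotypes of the second set called 91 entries, 49.7%, against 55.3% of all rows. The 7 pairwise comparisons of the first set also called 28 entries at least once, where 12.9% of all rows were called at least once. Of these entries 24 were the same and 4 differed on each side, and 155 tested entries were called in no pairwise comparison. Both counts of 28 include RE2, AT2G13431.1, AT5G43800.1, AT1G67626.1 and AT3G28915.1, which reached 100 reads only through 1 genotype of that set. The 91 include AT5G32197.1, AT3G29156.1 and AT5G52055.1, which reached it only through e2f. Calls of these entries rest on the reads that chose them, so the shares that include them are given as values.

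**Figure D1:**
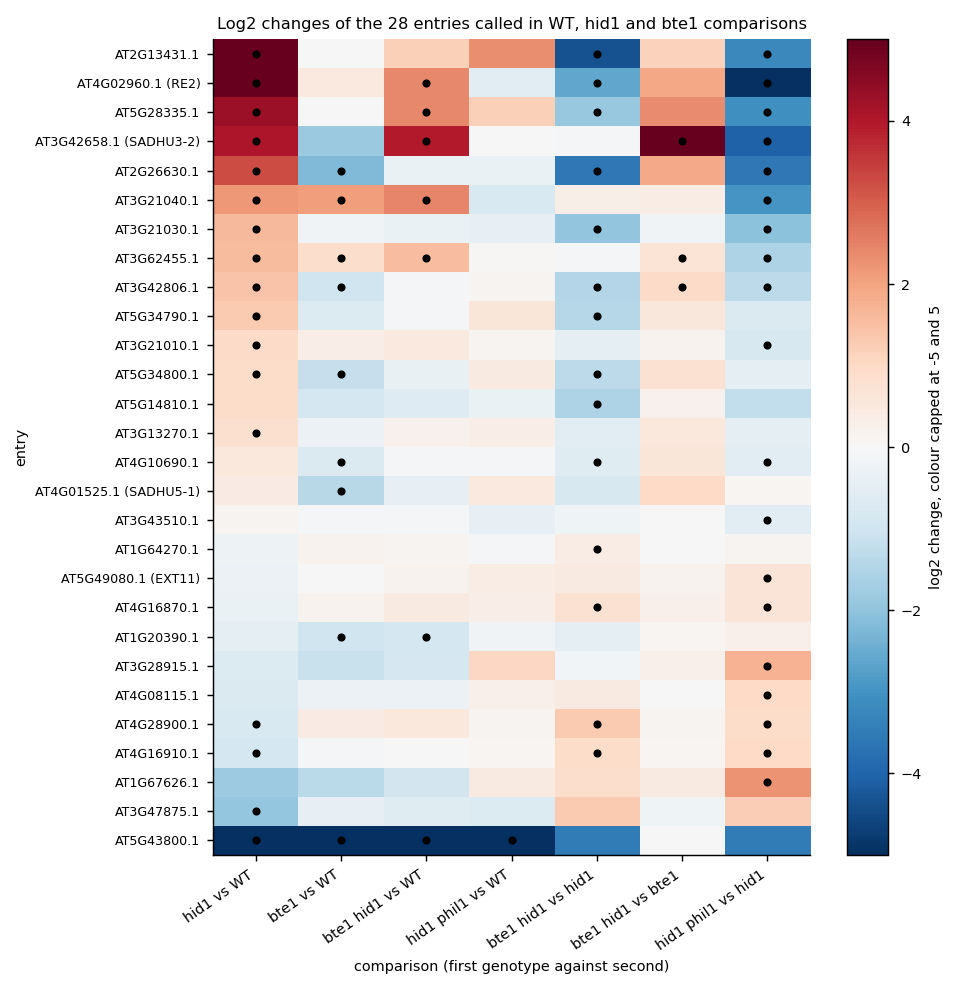
Log2 changes of the 28 entries called in at least 1 of the 7 pairwise comparisons of the first library set (rows, ordered by the change in hid1 against WT; columns, comparisons). Colour gives the log2 change, capped at -5 and 5, and black points mark an adjusted p below 0.05. Points of RE2 and AT2G13431.1 in comparisons with hid1, and of AT5G43800.1 with WT, are no test. The same holds for AT1G67626.1 and AT3G28915.1 in hid1 phil1 against hid1. In each a compared genotype chose the entry. The columns for hid1 against WT, bte1 hid1 against hid1 and hid1 phil1 against hid1 share the hid1 libraries.

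In hid1 seedlings a small group of entries was many times higher than in WT, and most other entries did not pass the test. hid1 against WT called 17 entries, 13 higher and 4 lower, or 9.29% of those tested, against 3.44% of all rows (1.73% higher and 1.72% lower). Of the 17, 3 reached 100 reads only through hid1 or WT, which leaves 14, 11 higher and 3 lower. Among the 13 were the copia element RE2, the Sadhu element SADHU3-2 and 3 neighbouring loci of a chromosome 3 cluster. The median log2 change was 0.0057 over the tested entries and 0.00085 over all rows. Without WT replicate 2 the count was 11. Of all rows, 25.2% did not overlap between hid1 and WT, and lack of overlap was part of the rule that named entries. The p-values measure the spread between these libraries, which the series design calls biological replicates. Seed markers were higher in hid1 than in WT, as given above, and their part in these calls was not tested.

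RE2 (AT4G02960.1), a copia-type retrotransposon with long terminal repeats, had 2, 4 and 2 reads in WT and 79, 106 and 73 in hid1. It had 1, 8 and 2 reads in bte1, 19, 12 and 13 in bte1 hid1, and 1, 2 and 2 in hid1 phil1. The hid1 libraries stood above those of every other genotype, the bte1 hid1 libraries came next, and the remaining 3 genotypes overlapped. RE2 had 99 reads without hid1, so its hid1 values are a description: the fitted log2 change was 5.02 in hid1 against WT, -2.61 in bte1 hid1 against hid1 and -5.58 in hid1 phil1 against hid1. In bte1 hid1 against WT, which does not use hid1, it was 2.41 (SE 0.576, adjusted p = 0.0194, edgeR). That call was lost without WT replicate 1 (adjusted p = 0.11), WT replicate 3 (0.101) or bte1 hid1 replicate 1 (0.1). In the second set RE2 had at most 8 reads in a library. No stretch of 100 bases of RE2 was repeated in the reference.

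SADHU3-2 (AT3G42658.1), a non-coding retroelement whose allele is methylated and silent in some natural accessions per the RefSeq note, showed another order of genotypes. WT had 14, 20 and 12 reads, hid1 244, 297 and 187, and bte1 hid1 180, 173 and 370. bte1 had 2, 8 and 2 reads and hid1 phil1 7, 22 and 15. The hid1 and bte1 hid1 libraries overlapped each other and lay above all the rest. The log2 change was 4.04 in hid1 against WT (SE 0.502, adjusted p = 5.63e-05), 3.96 in bte1 hid1 against WT (SE 0.502, adjusted p = 3.76e-05) and 5.83 in bte1 hid1 against bte1 (SE 0.619, adjusted p = 1.94e-05, edgeR). It was -4.02 in hid1 phil1 against hid1 (SE 0.506, adjusted p = 8.06e-05). Its neighbour AT3G42660 had a log2 change of 0.28 in hid1 against WT (adjusted p = 0.126) and of 0.19 in bte1 hid1 against WT (adjusted p = 0.496), but was called at -0.42 in hid1 phil1 against hid1 (adjusted p = 0.0112). Of the 11 Sadhu rows, SADHU3-2 was the 1 called in hid1 against WT.

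AT2G26630.1 was raised in hid1 without a like level in bte1 hid1. It had 14, 14 and 21 reads in WT, 153, 171 and 127 in hid1, 7, 2 and 1 in bte1, 13, 10 and 16 in bte1 hid1, and 17, 7 and 13 in hid1 phil1. The hid1 libraries stood apart from all others and the bte1 libraries lay below those of WT. The log2 change was 3.27 in hid1 against WT (SE 0.349, adjusted p = 2.95e-06), -3.59 in bte1 hid1 against hid1 (SE 0.359, adjusted p = 5.34e-07) and -3.59 in hid1 phil1 against hid1 (SE 0.362, adjusted p = 1.68e-06). In bte1 against WT it was -2.21 (SE 0.536, adjusted p = 0.024, edgeR), a call lost without WT replicate 3 (0.131), bte1 replicate 2 (0.124) or bte1 replicate 3 (0.17). Its neighbour KCS11, a fatty acid elongase, was at -0.01 in hid1 against WT (adjusted p = 0.971).

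AT5G28335.1 and AT2G13431.1 were near 0 reads in WT. AT5G28335.1 had 3, 4 and 1 reads in WT, 63, 41 and 51 in hid1, 14, 11 and 19 in bte1 hid1, 0, 2 and 6 in bte1, and 5, 2 and 11 in hid1 phil1. AT2G13431.1 had 1, 0 and 1 reads in WT against 38, 31 and 36 in hid1, and at most 6 in any library of the other genotypes. Both had hid1 libraries above every other library of the first set. AT5G28335.1 was higher in hid1 by 4.29 log2 units (SE 0.556, adjusted p = 4.58e-05, edgeR). The hid1 reads of AT2G13431.1 were 55.6 times those of WT (95% counting interval 15 to 465), without a test, since it had 20 reads without hid1. Such intervals cover counting error only. AT2G13431.1 lies wholly within AT2G13430 on the opposite strand, so which of the pair gave the reads cannot be told apart. In AT5G28335.1, 40.8% of stretches of 100 bases are repeated elsewhere in the reference, so other copies may have contributed. In bte1 hid1 against WT it was called at an adjusted p of 0.0493, and the call ended under 7 of 11 alternatives.

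AT3G42806.1 and AT3G62455.1 had enough reads in every genotype to be compared throughout. AT3G42806.1 had 123, 101 and 91 reads in WT, 279, 287 and 238 in hid1, 58, 53 and 42 in bte1, 85, 112 and 105 in bte1 hid1, and 114, 111 and 102 in hid1 phil1. Its level was 4.56 CPM in WT (SD 0.591, n = 3), 12.4 for hid1 (SD 0.231), 5.03 for hid1 phil1 (SD 0.29), 2.29 for bte1 (SD 0.419) and 4.41 for bte1 hid1 (SD 0.627). hid1 was above and bte1 below every other genotype, and WT, bte1 hid1 and hid1 phil1 overlapped. The log2 change was 1.43 in hid1 against WT (SE 0.154, adjusted p = 1.64e-06) and -0.996 in bte1 against WT (SE 0.173, adjusted p = 8e-04, edgeR). In bte1 hid1 it was -1.48 against hid1 (SE 0.154, adjusted p = 4.77e-07) and 0.95 against bte1 (SE 0.174, adjusted p = 0.00858), the latter lost without bte1 hid1 replicate 2 (0.0546) or bte1 replicate 3 (0.133).

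AT3G62455.1 instead was higher in bte1 as well as in hid1. It had 70, 88 and 77 reads in WT, 248, 241 and 187 in hid1, 122, 141 and 155 in bte1, 207, 254 and 224 in bte1 hid1, and 79, 81 and 72 in hid1 phil1. That is 3.42 CPM in WT (SD 0.511, n = 3), 10.3 for hid1 (SD 0.515), 3.57 for hid1 phil1 (SD 0.242), 6.23 for bte1 (SD 0.675) and 10.01 for bte1 hid1 (SD 1.14). bte1 lay between WT and the 2 genotypes with hid1 alone or with bte1, which overlapped each other, and hid1 phil1 overlapped WT. The log2 change against WT was 1.598 in hid1 (SE 0.128, adjusted p = 1.56e-08), 0.87 in bte1 (SE 0.131, adjusted p = 0.000134) and 1.55 in bte1 hid1 (SE 0.128, adjusted p = 6.42e-09, edgeR). The test of non-additivity asks whether the double mutant departs from the sum of the 2 single log2 changes. It called AT3G62455.1 alone among the entries, at -0.92 (SE 0.176, adjusted p = 0.0177), where 0.343% of all rows were called (0.224% positive and 0.119% negative). That call was lost without WT replicate 1 (0.0573), WT replicate 3 (0.0577), bte1 hid1 replicate 1 (0.0663) or bte1 replicate 3 (0.0631), and DESeq2 called 3 entries.

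**Figure D2:**
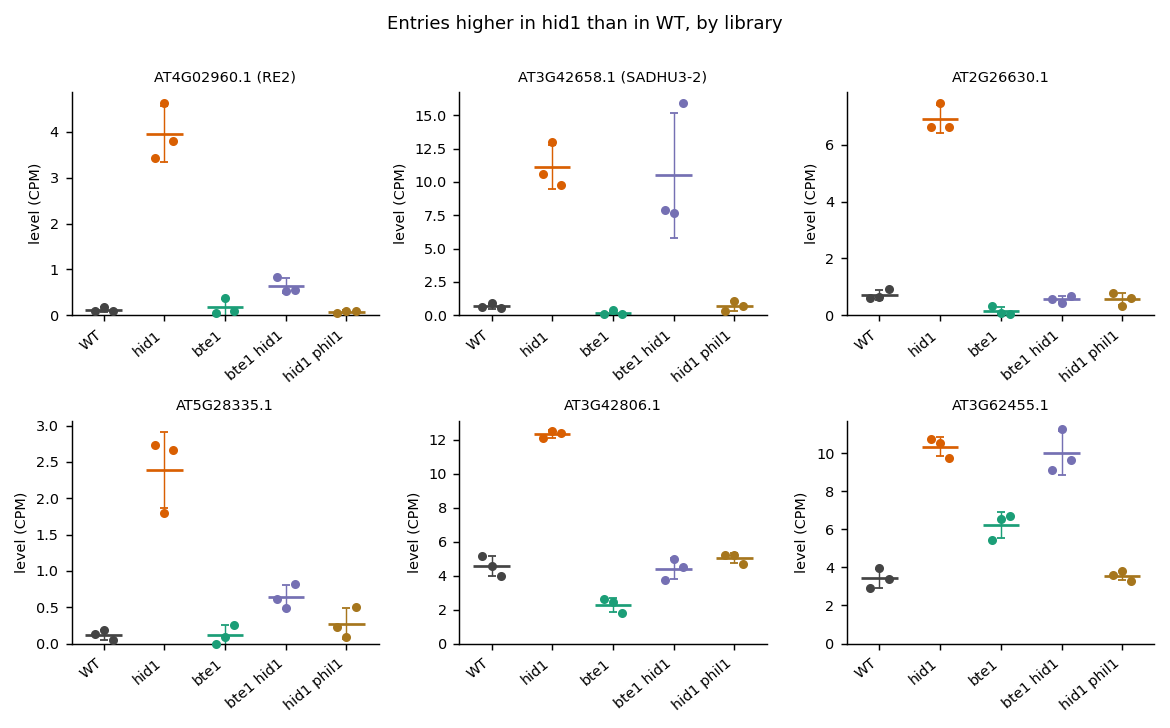
Level in CPM (y axis) of 6 entries higher in hid1 than in WT, by genotype of the first library set (x axis). The call of RE2 in hid1 against WT is no test, since hid1 chose that entry, and its hid1 values are a description. Points are libraries, horizontal bars the mean and vertical bars the SD of 3 libraries. RE2 is highest in hid1 alone, SADHU3-2 and AT3G62455.1 are high in hid1 and bte1 hid1, and AT3G42806.1 is at 12.4 CPM in hid1 against 2.29 in bte1.

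Entries that lie side by side were partly alike. AT3G21010.1, AT3G21030.1 and AT3G21040.1 belong to a run of 5 adjacent entries on chromosome 3 and were each called in hid1 against WT, at 0.94, 1.63 and 2.18 log2 units (adjusted p = 0.0267, 0.0117 and 0.00602, edgeR), the first 2 named here after their values were seen. AT3G21010.1 lost that call without WT replicate 2 (0.162), WT replicate 3 (0.0714), hid1 replicate 1 (0.0844) or hid1 replicate 2 (0.131), and AT3G21030.1 without WT replicate 2 (0.0575) or hid1 replicate 2 (0.0599). AT3G21020.1 and AT3G21050.1, in the same run, were not called. AT3G21040.1 had 3, 5 and 3 reads in WT, 25, 14 and 10 in hid1, 13, 9 and 25 in bte1, 24, 17 and 21 in bte1 hid1, and 2, 1 and 3 in hid1 phil1. All libraries of hid1, bte1 and bte1 hid1 lay above those of WT and hid1 phil1. The hid1 call of AT3G21040.1 was lost without hid1 replicate 1 (0.0628). On chromosome 5, AT5G34790.1 and AT5G34800.1 were at 1.33 and 0.92 log2 units in hid1 against WT (adjusted p = 0.00129 and 0.0192), and the latter was lost without WT replicate 1 (0.0889), WT replicate 2 (0.116) or hid1 replicate 1 (0.159).

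The remaining calls in hid1 against WT were smaller or rested on few reads. AT3G13270.1, with 73, 64 and 96 reads in WT and 163, 129 and 93 in hid1, was higher by 0.79 (SE 0.199, adjusted p = 0.0255, edgeR). It was lost without WT replicate 1 (0.1), WT replicate 2 (0.132) or hid1 replicate 1 (0.164). AT4G28900.1 and AT4G16910.1 were at -0.77 and -0.90 (adjusted p = 0.0166 and 0.037) and AT3G47875.1 at -1.92 (adjusted p = 0.0327). Each of these 3 lost its call under 4 or 5 of 11 alternatives, most of them leaving out 1 library of WT or hid1. AT4G28900.1 had 109, 89 and 103 reads in WT, 54, 68 and 45 in hid1 and 160, 134 and 139 in bte1 hid1, without overlap. Of all rows, 25.2%, 30.9% and 18.8% did not overlap in hid1 against WT, bte1 hid1 against hid1 and bte1 hid1 against WT. AT4G28900.1 was higher by 1.30 in bte1 hid1 than in hid1 (SE 0.177, adjusted p = 2.43e-05, edgeR), a call that no alternative ended.

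AT5G43800.1 had reads almost solely in WT. Its WT libraries held 111, 48 and 150 reads, its hid1 libraries 0, 0 and 4, and the 18 libraries of the other 6 genotypes none. Against a floor of 3 reads over a genotype, WT was at least 100-fold above bte1, at least 102-fold above bte1 hid1 and at least 97.3-fold above hid1 phil1. Without WT the entry had 4 reads, so WT chose it and no test is given. Its neighbours on either side did not pass the test in these comparisons: AT5G43790 lay between -0.15 and 0.08 and AGO10, an Argonaute protein of the shoot meristem, between -0.10 and 0.13. The 6 genotypes without a read include btl1, bte1 btl1 and e2f of the second set, for which no WT was in the set.

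AT3G46487.1 was a case of 1 library. It had 1, 211 and 2 reads in hid1 and at most 2 in any library of another genotype, and it did not pass the low-count filter. The same hid1 replicate 2 held 85.2 CPM of seed markers, against 1.04 and 12.4 in replicates 1 and 3. Seed sums were also high in e2f replicate 2 (140.6 CPM), btl1 replicate 2 (89.5), bte1 btl1 replicate 3 (79.9) and e2f replicate 3 (49.9), where AT3G46487.1 had 0, 1, 1 and 2 reads. The part of seed material in this value was not tested.

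In bte1 seedlings more entries were lower than higher. bte1 against WT called 9 entries, 2 higher and 7 lower, or 4.92% of those tested, against 2.52% of all rows (1.89% higher and 0.63% lower). Without AT5G43800.1 it was 8. The median log2 change was -0.09 over the tested entries and -0.0033 over all rows. Beside AT5G43800.1, AT2G26630.1 and AT3G42806.1, the lower ones were AT1G20390.1, AT4G10690.1, AT5G34800.1 and the Sadhu element SADHU5-1 (AT4G01525.1). The count was 4 without WT replicate 3 and 5 without bte1 replicate 1. Of all rows, 22.1% did not overlap between bte1 and WT.

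AT1G20390.1 carried the largest number of reads among these. It had 1030, 1034 and 1030 reads in WT, 781, 827 and 542 in hid1, 485, 480 and 554 in bte1, and 536, 488 and 631 in bte1 hid1, with 44.9 CPM in WT (SD 1.63, n = 3) and 22.6 in bte1 (SD 1.15). Both bte1 genotypes lay below all WT libraries. The log2 change was -0.99 in bte1 against WT (SE 0.208, adjusted p = 0.0105), lost without bte1 replicate 1 (0.0574), and -0.90 in bte1 hid1 against WT (SE 0.207, adjusted p = 0.0212, edgeR). The second call was lost without any 1 of WT replicate 1 (0.0578), WT replicate 2 (0.0748), WT replicate 3 (0.0701), bte1 hid1 replicate 1 (0.0899) or bte1 hid1 replicate 2 (0.11).

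The other changes in bte1 against WT were moderate. AT5G34800.1 was at -1.14 (SE 0.252, adjusted p = 0.0102), AT4G10690.1 at -0.71 (SE 0.16, adjusted p = 0.0117) and SADHU5-1 at -1.39 (SE 0.37, adjusted p = 0.0421, edgeR). The first 2 were lost without WT replicate 3 (0.129 and 0.126) or bte1 replicate 1 (0.0759 and 0.102), and SADHU5-1 without WT replicate 1 (0.219), WT replicate 2 (0.0511), WT replicate 3 (0.0818), bte1 replicate 1 (0.172) or bte1 replicate 2 (0.22). Of the stretches of 100 bases in SADHU5-1, 50% are repeated elsewhere. AT3G21040.1, described above, was higher by 2.08 (SE 0.456, adjusted p = 0.00912), lost without WT replicate 1 (0.0598), WT replicate 3 (0.0604) or bte1 replicate 3 (0.122).

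The double mutant bte1 hid1 was above WT in SADHU3-2 and AT3G62455.1 as hid1 was. Against WT it called 7 entries, 5 higher and 2 lower, or 3.83% of those tested, against 2.4% of all rows (1.98% higher and 0.42% lower). Without AT5G43800.1 it was 6. Green-tissue markers were lower in bte1 hid1 than in WT and hid1, as given above, and their part was not tested. The 5 were SADHU3-2, AT3G62455.1, AT3G21040.1 (2.46, SE 0.44, adjusted p = 0.000985, edgeR), RE2 and AT5G28335.1, and the 2 were AT5G43800.1 and AT1G20390.1. The count was 4 without WT replicate 1, WT replicate 3 or bte1 hid1 replicate 1. Against bte1 it called 3 entries, all higher, or 1.64% of those tested, against 0.224% of all rows (0.146% higher and 0.0776% lower). These were SADHU3-2, AT3G42806.1 and AT3G62455.1 (0.68, SE 0.121, adjusted p = 0.00592), and without bte1 hid1 replicate 2 the count was 1. AT3G62455.1 lost this call without bte1 hid1 replicate 2 (0.0505) or bte1 replicate 1 (0.0903).

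Against hid1, bte1 hid1 called 14 entries, 4 higher and 10 lower, or 7.65% of those tested, against 7.43% of all rows (4.33% higher and 3.11% lower). The share was thus near that of all rows. Without RE2 and AT2G13431.1 the count was 12. AT3G21030.1 had 32, 48 and 29 reads in hid1 and 16, 6 and 7 in bte1 hid1, a log2 change of -1.96 (SE 0.377, adjusted p = 0.00157, edgeR). AT5G28335.1 was at -1.89 (adjusted p = 0.00714), AT5G34790.1 at -1.44 (adjusted p = 0.000297) and AT5G34800.1 at -1.30 (adjusted p = 0.000578). Among the higher ones was AT4G16870.1, the entry with the third most reads. It had 1516, 1295 and 1019 reads in hid1 and 2401, 2156 and 2269 in bte1 hid1, without overlap, as in 30.9% of all rows. It was higher by 0.77 (SE 0.166, adjusted p = 0.00667), and its level was 58.5 CPM in hid1 (SD 6.46, n = 3) and 99.7 in bte1 hid1 (SD 5.18).

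The smaller calls of bte1 hid1 against hid1 were less firm. AT1G64270.1 was at 0.37 (adjusted p = 0.0159), AT4G16910.1 at 0.92 (adjusted p = 0.019), AT4G10690.1 at -0.62 (adjusted p = 0.012) and AT5G14810.1 at -1.55 (adjusted p = 0.0228, edgeR). AT1G64270.1 was lost without hid1 replicate 1 (0.0979), hid1 replicate 3 (0.066) or bte1 hid1 replicate 1 (0.0677), and AT4G16910.1 without hid1 replicate 2 (0.113), hid1 replicate 3 (0.0861), bte1 hid1 replicate 1 (0.0734) or bte1 hid1 replicate 3 (0.0508). AT4G10690.1 was lost without bte1 hid1 replicate 1 (0.0679) or replicate 2 (0.0526), and AT5G14810.1 without hid1 replicate 1 (0.0973), hid1 replicate 3 (0.0634) or bte1 hid1 replicate 1 (0.125). Repeats make up 78.5% of the stretches of 100 bases in AT5G14810.1.

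The comparison of hid1 phil1 with WT gave the fewest calls among those with WT. It called 1 entry, AT5G43800.1, or 0.546% of those tested, against 0.114% of all rows (0.0502% higher and 0.0639% lower). WT chose that entry, and edgeR called none of the others. With it, 14 entries were at an unadjusted p below 0.05, and DESeq2 called 0. Against hid1 the same libraries called 19 entries, 7 higher and 12 lower, or 10.4% of those tested, against 6.45% of all rows (3.53% higher and 2.92% lower). Of the 19, 4 reached 100 reads only through hid1 or hid1 phil1, which leaves 15, 5 higher and 10 lower. The hid1 libraries are shared with hid1 against WT. Without replicate 2 of hid1 phil1, which stood apart, 11 entries were called.

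The lower ones against hid1 included most of those raised in hid1, but not AT3G13270.1, AT5G34790.1 or AT5G34800.1. AT3G21040.1 was at -2.94 (SE 0.509, adjusted p = 0.000984), AT5G28335.1 at -3.08 (SE 0.486, adjusted p = 0.000524) and AT3G62455.1 at -1.54 (SE 0.128, adjusted p = 3.16e-08, edgeR). AT4G28900.1 was higher by 0.92 (SE 0.18, adjusted p = 0.00304), which like the 3 before it kept its call in the 11 alternatives. EXT11, with 310, 478 and 397 reads in hid1 and 510, 696 and 676 in hid1 phil1, was higher by 0.66 (SE 0.157, adjusted p = 0.0137). It was lost without hid1 replicate 1 (0.0702), hid1 phil1 replicate 2 (0.0755) or hid1 phil1 replicate 3 (0.0548). AT4G16910.1 was at 0.99 (adjusted p = 0.0154) and AT4G16870.1 at 0.65 (adjusted p = 0.025), and both were lost without 1 or more libraries. Of the 17 entries called in hid1 against WT, 12 were called the opposite way in hid1 phil1 against hid1 and 5 were not called. The 12 include RE2 and AT2G13431.1, which hid1 chose, and both comparisons use the same hid1 libraries. The like share over all rows is not given here, so these counts are values only.

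AT1G67626.1 and AT3G28915.1 had few reads in all genotypes. AT1G67626.1 had 2, 4 and 1 reads in hid1 and 11, 11 and 13 in hid1 phil1, a fitted log2 change of 2.26. AT3G28915.1 had 7, 6 and 4 reads in hid1 and 18, 21 and 18 in hid1 phil1, a fitted log2 change of 1.73. Neither pair of groups overlapped, as in 26.3% of all rows, and no test is given, since both reached 100 reads only through hid1 phil1.

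The 3 entries with the smallest p in the test for any difference in the first set were AT3G62455.1, AT3G42806.1 and AT2G26630.1. The entries whose log2 CPM followed AT3G62455.1 most closely over the 15 libraries were AT3G21040.1 (Pearson r = 0.87), SADHU3-2 (0.80) and RE2 (0.76). For AT3G42806.1 they were AT2G26630.1 (0.94), AT5G34790.1 (0.91) and AT2G13431.1 (0.88). For AT2G26630.1 they were AT2G13431.1 (0.94), AT3G42806.1 (0.94) and RE2 (0.90). These values describe libraries of 5 genotypes that differ in level, and the entries were ranked by them.

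In the second set, bte1 btl1 seedlings differed from btl1 in few entries. The comparison called 7 entries, 5 higher and 2 lower, or 3.83% of those tested, against 4.49% of all rows (3.37% higher and 1.12% lower). The count was 12 with DESeq2. AT3G21040.1 had 4, 3 and 6 reads in btl1 and 50, 45 and 43 in bte1 btl1, the clearest separation, with a log2 change of 3.47 (SE 0.397, adjusted p = 1.87e-06, edgeR). AT1G20390.1 had 804, 855 and 1009 reads in btl1 and 160, 204 and 261 in bte1 btl1, without overlap, as in 23.9% of all rows. Its log2 change was -2.02 (SE 0.224, adjusted p = 7.02e-06, edgeR).

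A further 3 entries kept their call in every alternative run for them. AT3G42806.1 had 99, 71 and 69 reads in btl1 and 25, 40 and 38 in bte1 btl1, which gave a log2 change of -1.13 (SE 0.187, adjusted p = 0.000307, edgeR). AT3G62455.1 had 96, 89 and 83 reads in btl1 and 119, 124 and 144 in bte1 btl1, which gave a log2 change of 0.61 (SE 0.13, adjusted p = 0.00444). AT5G53815.1 had 5, 8 and 7 reads in btl1 and 23, 19 and 29 in bte1 btl1, which gave a log2 change of 1.89 (SE 0.402, adjusted p = 0.00441). In each case the 2 genotypes did not overlap, as in 23.9% of all rows, and this was part of the rule that named the entries. AT5G53815.1 lies wholly within AT5G53810 on the opposite strand. MUG2 (AT2G30640.1), a MUSTANG gene, was at 0.81 (adjusted p = 0.0139) and AT1G21220.1 at 1.85 (adjusted p = 0.0346). MUG2 was lost with the second set fitted alone (0.113) and without btl1 replicate 1 (0.114), btl1 replicate 2 (0.0906) or bte1 btl1 replicate 2 (0.0767). AT1G21220.1 was lost with the second set fitted alone (0.137) and without btl1 replicate 1 (0.192), btl1 replicate 3 (0.175), bte1 btl1 replicate 1 (0.172) or bte1 btl1 replicate 3 (0.0684).

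AT3G21040.1, AT1G20390.1, AT3G42806.1 and AT3G62455.1 were thus called with bte1 in both library sets. Their log2 changes with bte1 were 2.08, -0.99, -0.996 and 0.87 against WT and 3.47, -2.02, -1.13 and 0.61 against btl1. Of all rows, 2.52% were called in bte1 against WT and 4.49% in bte1 btl1 against btl1. The share of all rows called in both is not given here. Whether the change with bte1 differs between these backgrounds was tested over all rows, and edgeR called none of the 183 entries, against 0.0685% of all rows (0.0457% positive and 0.0228% negative). At an unadjusted p below 0.05 there were 12 entries, DESeq2 called 0, and 1 was called with the replicate number as a block. The difference between the backgrounds was -1.03 for AT1G20390.1 (SE 0.304, unadjusted p = 0.00314, adjusted p = 0.375, edgeR). It was 1.38 for AT3G21040.1 (SE 0.684, adjusted p = 0.854), -0.13 for AT3G42806.1 and -0.25 for AT3G62455.1. The lack of a call does not show equal changes.

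**Figure D3:**
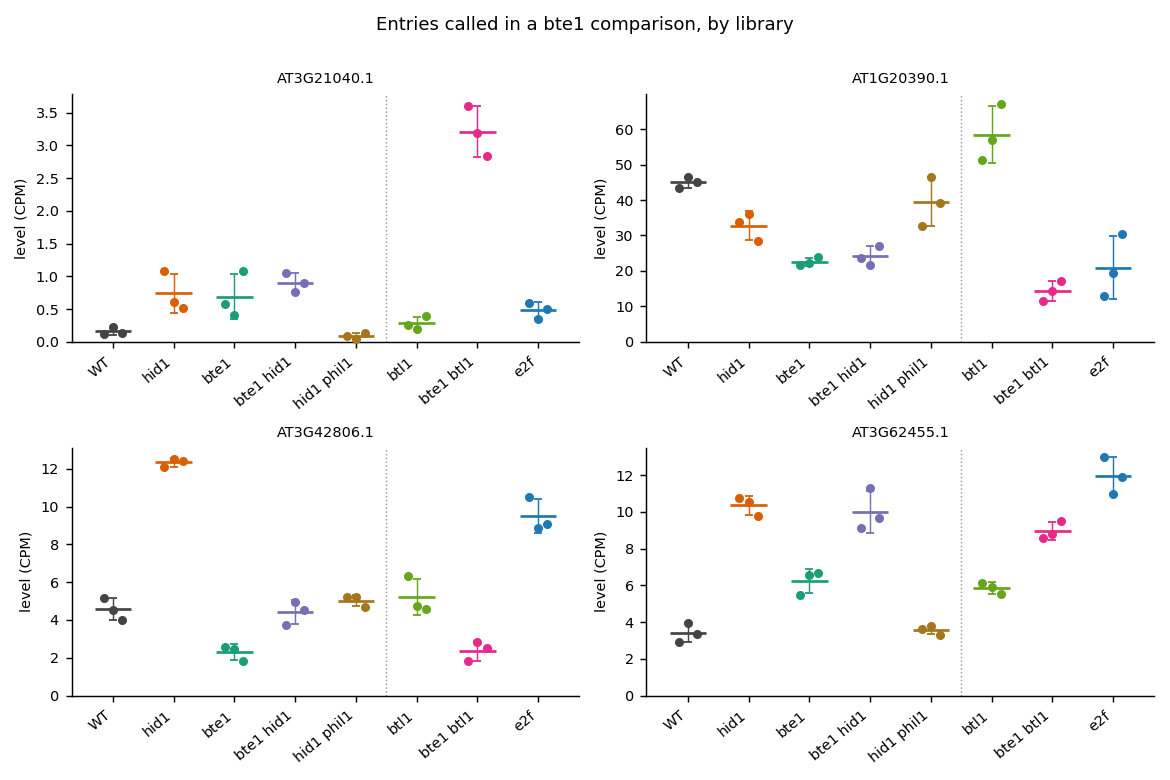
Level in CPM (y axis) of 4 entries called with bte1 in both library sets, by genotype (x axis). Points are libraries, horizontal bars the mean and vertical bars the SD of 3 libraries, and the dotted line separates the 2 library sets. AT3G21040.1 is highest in bte1 btl1 at 3.21 CPM, and AT1G20390.1 is lowest there at 14.4 CPM.

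The e2f libraries differed from btl1 and bte1 btl1 in many entries, as they did in many rows of the whole table. e2f against btl1 called 74 entries, 35 higher and 39 lower, or 40.4% of those tested, against 51.2% of all rows (26.4% higher and 24.8% lower). e2f against bte1 btl1 called 77 entries, 38 higher and 39 lower, or 42.1%, against 51.1% of all rows (26.1% higher and 25% lower). Green-tissue markers summed to 23295, 22700 and 18410 CPM in the e2f libraries, below every btl1 (30768 to 33325) and bte1 btl1 (32265 to 39979) library, and their part in these calls was not tested. With both comparisons, 28 entries were called higher and 28 lower, and 88 were called in neither, although the e2f libraries are shared. The shares of all rows called alike in both or in neither are not given here, so these counts are values only. Of the 74, 3 reached 100 reads only through a genotype of that comparison, and of the 77, 2 did. The share of entries called was thus below that of all rows in both. The median entry had 1138 reads over all libraries, and the part of read number in these shares was not tested. The median log2 change over the tested entries was -0.06 against btl1 and -0.0035 against bte1 btl1.

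AT5G32197.1 had reads almost solely in e2f, with 2301, 2670 and 3204 in its 3 libraries. The other 21 libraries held at most 2 reads each and 5 in all. In e2f this was 123 CPM (SD 19.9, n = 3), a level surpassed there only by AT2G11240.1 with 255 CPM. The e2f reads were at least 1771-fold above bte1 btl1, which had none, and 5628 times those of btl1, with 1 read (95% counting interval 1010 to 222313). Without e2f the entry had 5 reads, so e2f chose it and no test is given. The locus overlaps the miRNA gene MIR854c on the same strand over 11.4% of its length, and 29.0% of its stretches of 100 bases are repeated elsewhere, so reads may come from a like copy. Its neighbours AT5G32179 and AT5G32215 had 0 and 28 reads over all libraries.

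AT5G28335.1, which was raised in hid1, had 49, 98 and 96 reads in e2f, 0, 1 and 0 in btl1 and none in bte1 btl1. The e2f reads were at least 52.6-fold above bte1 btl1 and 167 times those of btl1 (95% counting interval 29.7 to 6634), with an adjusted p of 1.18e-07 against btl1 (edgeR). AT3G29156.1 had 23, 45 and 52 reads in e2f, 1, 0 and 2 in btl1 and 4, 2 and 2 in bte1 btl1. Its e2f reads were 27.5 times those of btl1 (95% counting interval 9.20 to 135), without a test, since it had 21 reads without e2f. For both, the neighbours with enough reads to be tested were not called in e2f against btl1.

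AT1G43590.1 and AT4G04293.1 had no read in e2f, and AT3G15310.1 had 0, 3 and 0. AT1G43590.1 had 9, 22 and 16 reads in btl1 and 9, 11 and 23 in bte1 btl1, so btl1 was at least 22.8-fold and bte1 btl1 at least 22.1-fold above e2f. It had reads in all 15 libraries of the first set, from 4 to 47. AT3G15310.1 had 9, 14 and 19 reads in btl1, 20.3 times those of e2f (95% counting interval 6.50 to 103, adjusted p = 7.73e-06, edgeR), and 16, 21 and 15 in bte1 btl1. AT4G04293.1 had 1, 2 and 5 reads in btl1 and 7, 8 and 4 in bte1 btl1, at least 3.87-fold and at least 9.74-fold above e2f, and its btl1 call was lost without btl1 replicate 3 (0.0984). AT1G43580, beside AT1G43590.1, was at -0.42 in e2f against btl1 (adjusted p = 7.87e-05).

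**Figure D4:**
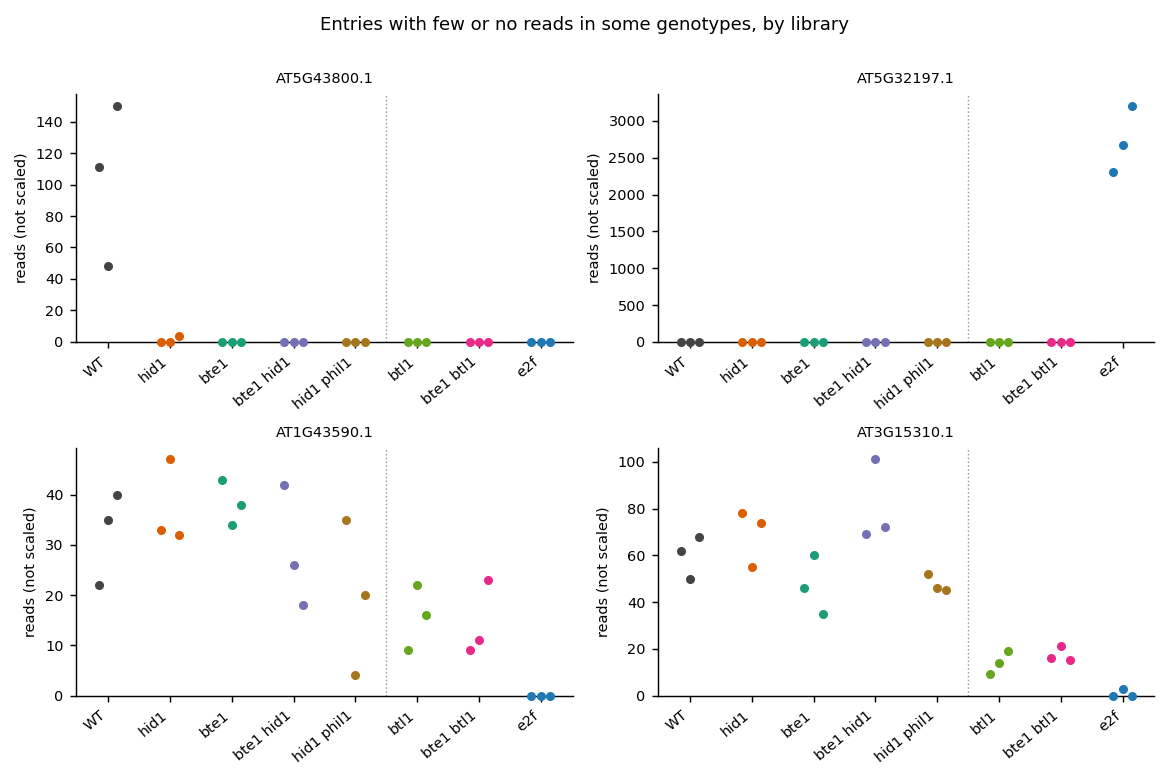
Reads per library, not scaled (y axis), of 4 entries with few or no reads in some genotypes, by genotype (x axis); the dotted line separates the 2 library sets. AT5G43800.1 has 48 to 150 reads in WT and at most 4 elsewhere, AT5G32197.1 has 2301 to 3204 in e2f, and AT1G43590.1 has none in e2f.

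Further entries had e2f reads above those of btl1 or bte1 btl1. AT3G32925.1, which lies within AT3G32920 on the same strand, had 54, 55 and 60 reads in e2f and 3, 8 and 8 in btl1 (2.59, SE 0.45, adjusted p = 4.01e-05, edgeR). AT4G20730.1 had 180, 204 and 246 reads in e2f and 27, 30 and 29 in bte1 btl1 (2.25, SE 0.207, adjusted p = 4.07e-09). AT5G52055.1 had 19, 14 and 11 reads in e2f, 15.1 times those of btl1 (95% counting interval 3.95 to 129), and AT3G29642.1 18, 7 and 6, 10.7 times (95% counting interval 2.72 to 92.0). AT1G67626.1 had 11, 9 and 7 reads in e2f, 8.77 times those of bte1 btl1 (95% counting interval 2.20 to 76.1). In all 5 the e2f libraries lay above those they were compared with, which was part of the rule that named them. Of all rows, 55.1% did not overlap between e2f and btl1, and 53.1% between e2f and bte1 btl1.

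Lower in e2f were also SADHU5-1, AT2G29165.1 and AT4G03816.1 against btl1, at -2.08, -2.39 and -2.33 (adjusted p = 0.00019, 0.00188 and 0.0197, edgeR). AT4G03816.1 was lost without btl1 replicate 1 (0.0837), btl1 replicate 2 (0.0629) or e2f replicate 2 (0.0805). Against bte1 btl1 they were AT5G53815.1 at -1.80 (adjusted p = 0.000274), AT5G64685.1 at -1.83 (adjusted p = 0.00185) and AT3G21040.1 at -2.72 (adjusted p = 5.47e-07). AT3G21040.1 had 13, 8 and 11 reads in e2f against 50, 45 and 43 in bte1 btl1. AT3G42806.1 was in contrast higher in e2f, with 230, 199 and 201 reads, by 1.99 against bte1 btl1 (SE 0.176, adjusted p = 2.06e-09).

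Of the 10 entries with the most reads, 7 were called in e2f against btl1, 4 higher and 3 lower. AT3G43690.1 had 335, 309 and 336 reads in btl1 and 1420, 1928 and 2449 in e2f, a log2 change of 2.02 (SE 0.132, adjusted p = 1.57e-11, edgeR). AT2G06950.1 had 516, 471 and 508 reads in btl1 and 1376, 1690 and 2099 in e2f, a log2 change of 1.25 (SE 0.123, adjusted p = 1.73e-08). AT1G80020.1 (0.47) and MUG1 (0.18) were also higher, whereas AT1G20390.1 (-1.48), SADHU1-1 (-0.51) and AT2G11240.1 (-0.39) were lower, at adjusted p of 5.53e-06, 0.0436, 1.11e-05, 0.000262 and 0.000406. The call of MUG1 was lost without btl1 replicate 2 (0.239), btl1 replicate 3 (0.0513), e2f replicate 2 (0.0556) or e2f replicate 3 (0.111), with no low-count filter (0.0504) and with the second set fitted alone (0.11). AT1G35115.1 (-0.19), AT4G16870.1 (-0.18) and AT5G55896.1 (-0.08) were not called, but AT4G16870.1 was at -0.47 and called without e2f replicate 3 (0.0074) and at 0.035 without e2f replicate 1 (0.859). Of the 9 MUSTANG rows 4 were called higher and none lower in e2f against btl1, and of the 11 Sadhu rows none higher and 5 lower. Against bte1 btl1 the MUSTANG rows gave 3 higher and 1 lower and the Sadhu rows 1 higher and 3 lower. Of all rows, 26.4% and 26.1% were called higher and 24.8% and 25% lower in the 2 comparisons.

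**Figure D5:**
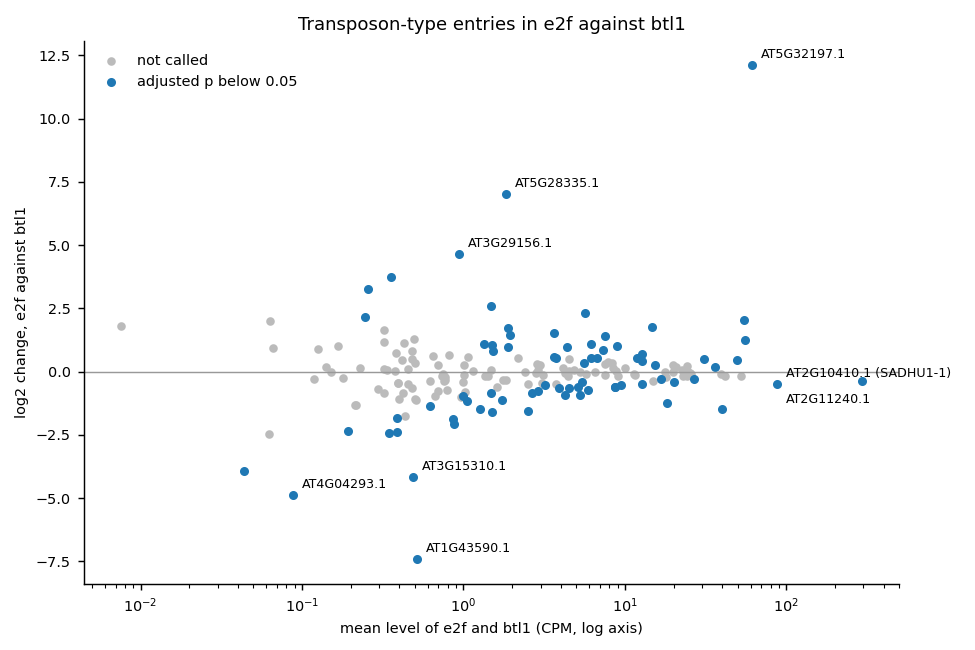
Log2 change in e2f against btl1 (y axis) of the 183 tested entries against the mean of their e2f and btl1 levels (x axis, CPM, log scale). Blue points are entries at an adjusted p below 0.05, 35 above and 39 below 0, and labels name the entries with the widest changes and the 2 with the most reads. AT5G32197.1 lies farthest up and AT1G43590.1 farthest down, both fitted values that depend on groups with almost no reads. The blue points of AT5G32197.1, AT3G29156.1 and AT5G52055.1 are no test, since e2f chose these entries.

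A list of 41 genes that silence transposons or undo that silencing, all tested, was read beside the entries. In hid1 against WT 6 were called, 5 higher and 1 lower, where 3.44% of all rows were called. The methyltransferases MET1 and CMT3 were at 0.32 (adjusted p = 0.00766) and 0.42 (adjusted p = 0.0192), VIM1, which binds methylated DNA for MET1, at 0.44 (adjusted p = 0.00821), and the demethylase ROS1 at -0.41 (adjusted p = 0.0238, edgeR). MET1 was at 58.6 CPM in WT and 73.1 in hid1. Without WT replicate 2 or hid1 replicate 3 only 1 list gene was called, and without WT replicate 3, hid1 replicate 1 or hid1 replicate 2 it was 2, 3 and 3.

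In bte1 against WT, where 2.52% of all rows were called, the list gave 2 calls, CMT3 at 0.64 (adjusted p = 0.000185) and SGS3, a cofactor of small RNA synthesis, at -0.46 (adjusted p = 0.00285, edgeR). In bte1 hid1 against WT (2.4% of all rows) it gave 1, CMT3 at 0.54 (adjusted p = 0.00166). In bte1 hid1 against hid1 (7.43% of all rows) it gave 9, 3 higher and 6 lower, with SGS3 at -0.53, VIM1 at -0.51 and AGO6, an Argonaute protein of RNA-directed methylation, at -0.78. Without hid1 replicate 3 the count was 4, and without hid1 replicate 2 or bte1 hid1 replicate 2 it was 5. In hid1 phil1 against hid1 (6.45% of all rows) it gave 6, 1 higher and 5 lower, with MET1 at -0.38, VIM1 at -0.45 and ROS1 at 0.49, and without hid1 replicate 3 it gave 3. In hid1 phil1 against WT (0.114% of all rows) edgeR called none, with none at an unadjusted p below 0.05 and none by DESeq2. In bte1 hid1 against bte1 (0.224% of all rows) it also called none, with 6 at an unadjusted p below 0.05 and none by DESeq2. The non-additivity of bte1 and hid1 (0.343% of all rows) gave 1, ROS1 at 0.68 (adjusted p = 0.0299), a call lost without any 1 of 9 of the 12 libraries.

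In bte1 btl1 against btl1 (4.49% of all rows) the list gave 9 calls, 7 higher and 2 lower, led by CMT3 at 0.79 (adjusted p = 1.09e-05), MET1 at 0.46 (adjusted p = 8.19e-05) and VIM1 at 0.47 (adjusted p = 0.00325, edgeR). Without bte1 btl1 replicate 1 the count was 4, and without btl1 replicate 2 or btl1 replicate 3 it was 5. In e2f 22 of the 41 were called against btl1, 18 higher and 4 lower, and 22 against bte1 btl1, 19 higher and 3 lower, beside 51.2% and 51.1% of all rows called. CMT3 was at 171 CPM in e2f against 32.8 in btl1, a log2 change of 2.38 (adjusted p = 4.86e-15). MET1 was at 1.36 and FAS1, a subunit of the histone chaperone CAF-1, at 2.38 (adjusted p = 9.42e-14 and 1.89e-13). Against bte1 btl1 the leading ones were ROS1 at 1.91, CMT3 at 1.59 and AGO6 at 2.14 (adjusted p = 4.55e-13, 4.04e-12 and 6.91e-12). The part of these genes in the levels of the entries was not tested.

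The 2 library sets were not compared by a test, but some entries were nearly confined to 1 of them. AT2G10405.1 had 856 reads in the 15 libraries of the first set and 2 in the 9 of the second, and AT2G31520.1 had 901 and 8. Both had reads in all 15 libraries of the first set, at least 35 and 41. AT2G10405.1 overlaps the abundant SADHU1-1 on the opposite strand, which had 30859 and 13274 reads in the 2 sets, and AT2G31520.1 overlaps SCY2 on the opposite strand over 1.53% of its length. How the strand was treated in each set is not given in the sources used here, and its part was not tested. AT2G10405.1 and AT2G31520.1 were called in no comparison of the first set.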

How the data were processed

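Poly(A) RNA libraries of 24 seedling samples were analysed. The authors deposited raw read counts per feature and, in a second table, FPKM values. Per the submitters' processing notes, fastp, HISAT2 2.1.0 and SAMtools 1.6 were used with TAIR10; the counting tool is not given in the sources used here. Counts were tested in edgeR 4.0.16 (limma 3.58.1, R 4.3.3) with TMM normalization, filterByExpr, robust quasi-likelihood fits of 1 mean per genotype and Benjamini-Hochberg adjustment at 0.05. FPKM only ranked WT levels. The entries, the rule for them and the gene lists were chosen with earlier results of these data known. Named entries were those called without overlap between libraries (all up to 12 per comparison, otherwise the 6 highest and 6 lowest changes), the 10 with the most reads, the 3 on either side of the threshold, AT5G43800.1, neighbours of entries with reads in few genotypes, the 3 most correlated entries of 3 leading entries, and up to 3 silencing genes per comparison; others are said to be chosen after their values were seen. Exact intervals for ratios at 1 to 3 reads are at 95%, and the floor is 3 reads per genotype. RefSeq's TAIR10.1 annotation supplied names, overlaps and neighbours, so no coordinates or sequences are given. Scripts were tested on simulated data. Alternatives were RLE normalization, no filter, DESeq2 1.42.0, separate sets, a replicate block and leaving out each library. Same-numbered libraries deviated together in bte1 hid1 and bte1 (correlations 0.135, 0.126 and 0.224), the 1 comparison where every pair passed 0.1.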

Additional observations from a re-analysis of the deposited data

Results flagged for a closer look

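The change of AT3G62455.1 in the bte1 hid1 double mutant differed from the sum of its changes in hid1 and bte1, by a test of that difference itself. The difference was -0.92 on the log2 scale (SE 0.176, adjusted p = 0.0177, edgeR), with 1.598 in hid1, 0.87 in bte1 and 1.55 in bte1 hid1 against WT. The call was lost without WT replicate 1 (0.0573), WT replicate 3 (0.0577), bte1 hid1 replicate 1 (0.0663) or bte1 replicate 3 (0.0631).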

How the results depend on the processing

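Of 103 called changes of named entries, 65 kept their call under every alternative run and 38 lost it at least once. The 65 include changes of RE2 and AT2G13431.1 in comparisons with hid1, and of AT5G32197.1, AT3G29156.1 and AT5G52055.1 with e2f. The 38 include those of AT5G43800.1 with WT and of AT1G67626.1 and AT3G28915.1 in hid1 phil1 against hid1. In these a compared genotype chose the entry, so keeping or losing the call is no result. The uncalled change of AT4G16870.1 in e2f against btl1 was 0.035 without e2f replicate 1 and -0.47, then called, without e2f replicate 3. DESeq2 gave 0 entries for hid1 phil1 against WT, 12 for bte1 btl1 against btl1 and 3 for the non-additivity of bte1 and hid1, where the first set alone gave 2. For silencing genes DESeq2 gave 3 and 2 for the non-additivity of bte1 with hid1 and with btl1. The cause was not tested. Of 39 same-numbered pairs of libraries, 15 correlated above 0.1 (range -0.294 to 0.296), and all 3 did so in bte1 hid1 with bte1 alone. The replicate block gave 3 entries there, as without it. Elsewhere the numbers are not taken as pairing libraries. The replicate block gave 2 silencing genes for bte1 hid1 against WT and 1 entry for the non-additivity of bte1 and btl1, and moved no other count by over 1.5 times. Without AT2G11240.1 the entries' share was 0.141% in WT, 0.142% in hid1, 0.136% in bte1, 0.150% in bte1 hid1, 0.142% in hid1 phil1, 0.127% in btl1, 0.118% in bte1 btl1 and 0.149% in e2f.

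Leaving out 1 library gave 11 to 16 entries for hid1 against WT, 4 to 8 for bte1 against WT, 4 to 6 for bte1 hid1 against WT, 0 to 1 for hid1 phil1 against WT, 1 to 4 for bte1 hid1 against bte1, 11 to 16 for hid1 phil1 against hid1 and 0 to 1 for the non-additivity of bte1 and hid1. For silencing genes it gave 1 to 4 for hid1 against WT, 4 to 6 for bte1 hid1 against hid1, 3 to 6 for hid1 phil1 against hid1, 4 to 7 for bte1 btl1 against btl1 and 0 to 1 for the non-additivity of bte1 and hid1. The non-additivity of bte1 and btl1, and loci counted instead of transcript entries, were added after seeing the data. The former spans both sets, so fitting 1 set alone gives no value for it. Entries with few reads limit what these depths can show.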
